A study of Mus musculus with 20 samples.

Results

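The 40 genes described here encode enzymes that write and erase acetyl and methyl groups on histones, chosen by symbol as those that work beside or against the deacetylase SIRT6. They comprise 4 class I and 7 class II and IV histone deacetylases (HDACs), 9 histone acetyltransferases, 7 methyltransferases of the repressive marks on lysines K9 and K27 of histone H3, 4 methyltransferases of K4, K36 and K79, and 9 histone demethylases. All 40 symbols were found among the 51789 genes of the deposited table, and all 40 were among the 16383 genes tested.

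Acetyl groups placed by acetyltransferases loosen chromatin and recruit bromodomain readers, and HDACs and sirtuins take them off again. Methyl groups do not act alike: methylated H3K4, H3K36 and H3K79 lie on transcribed genes, whereas methylated H3K9 and H3K27 mark silenced ones. Most histone demethylases need oxygen, iron and 2-oxoglutarate. SIRT6 is a NAD-dependent deacylase that removes acetyl groups from H3K9, H3K18 and H3K56, so its substrates are shared with several of these enzymes.

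Libraries came from BL6 mice aged 24 months and from both parts of the intervertebral disc: its gel-like, poorly vascularised core, the nucleus pulposus (NP), and the layered fibrous wall that encloses it, the annulus fibrosus (AF). The series asked, by its title, about activation of SIRT6 in the aging disc, and MDL-800 is a small-molecule activator of that enzyme. The NP vehicle and AF vehicle groups came from mice that received intraperitoneal DMSO each week from 18 months of age for 6 months, and the NP MDL-800 and AF MDL-800 groups from mice that received MDL-800 in the same amount of DMSO over the same time, so every group carried DMSO and old age and none was young or untreated. Each of the 4 groups held 5 libraries; the dose of MDL-800, the sex of the mice and whether each library came from its own mouse are not given in the sources used here, so p-values measure the spread between libraries, which may in part be technical. The labels call the material primary cells, while the protocol describes tissue dissected under a microscope and put straight into a stabilising solution.

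Values are scaled FPKM: fragments counted relative to transcript length and library size, divided by a factor for each library of 0.933 to 1.06. Because FPKM carries no counts, the depth behind a value is unknown and no counting interval can be given. Log2 differences are on the log2(scaled FPKM + 1) scale, which understates changes of low genes, and a gene is called higher or lower where its limma p, adjusted over all 16383 genes, was under 0.05. Summed marker levels differed in the direction of the tissue labels: that of 10 NP markers was 10600 to 12200 in NP vehicle and 1690 to 6280 in AF vehicle libraries, and that of 8 AF markers 791 to 1580 and 3010 to 9420. Single markers did not all follow: Car12 of the NP list was called lower in NP (-0.96), and Fmod of the AF list had a positive difference without a call (0.48). AF vehicle library 9 had both the highest NP sum (6280) and the lowest AF sum (3010) of its group. Brachyury (T), which defines notochord-derived cells, was at 1399 ± 251 in NP vehicle and at 304 ± 200 in AF vehicle (SD, n = 5), and the notochord gene Noto was too low to be tested. Libraries 1 and 2 of NP vehicle stood apart in how their values followed the GC content of the transcript, so calls of members that were lost without them are given with that value.

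The members were expressed at moderate levels. In NP vehicle the highest was Kdm3a, an H3K9 demethylase, at 43.95 ± 6.39 (SD, n = 5), ahead of Kdm2a at 42.5 ± 3.48 (SD, n = 5) and Kat7 at 41.4 ± 3.34 (SD, n = 5), and these 3 did not differ beyond their spread. In AF vehicle the order began with Hdac1 at 46.7 ± 4.61 (SD, n = 5), Kat7 at 36.6 ± 2.32 (SD, n = 5) and Kdm2a at 35.2 ± 5.14 (SD, n = 5). At the foot of both orders stood Suv39h2, a methyltransferase of H3K9 in heterochromatin, with means of 0.606 ± 0.155 (SD, n = 5) and 1.49 ± 0.345 (SD, n = 5). Spread within a group was mostly small, with a coefficient of variation of 2.4% for Kdm5a in AF vehicle, but it reached 60.1% for Hdac9 among NP libraries treated with MDL-800.

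The comparison of the tissues asked which of these enzymes differ between the core and the ring of the disc. Of the 40 members, 11 were higher and 11 lower in NP than in AF of vehicle-treated mice, which is 55% of the members beside 55.7% of all genes tested (21.8% higher, 33.9% lower). The share called was close to that of all genes, and the members' median log2 difference was 0.04 beside -0.08 for all genes. By role, with no test between roles, demethylases gave 6 of 9 higher and 0 lower, class I HDACs 0 of 4 higher and 3 lower, class II and IV HDACs 1 of 7 higher and 3 lower, and the H3K9 and H3K27 methyltransferases 1 of 7 higher and 3 lower. Of the last 3 lower calls, that of Suv39h2 is for a gene that passed the filter only through its AF libraries. Acetyltransferases gave 1 of 9 in each direction, and the methyltransferases of transcribed genes 2 of 4 higher and 1 lower. The 3 class I calls (Hdac1, Hdac2 and Hdac3) were all lost when each library's GC trend was removed, where 25 members were higher and 6 lower. That removal also gave all libraries the same mean log2 level, so GC content and recentring cannot be told apart in its values. Groups did not overlap for 9 members above and 8 below, beside 15.1% and 25.9% of all genes.

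**Figure D1:**
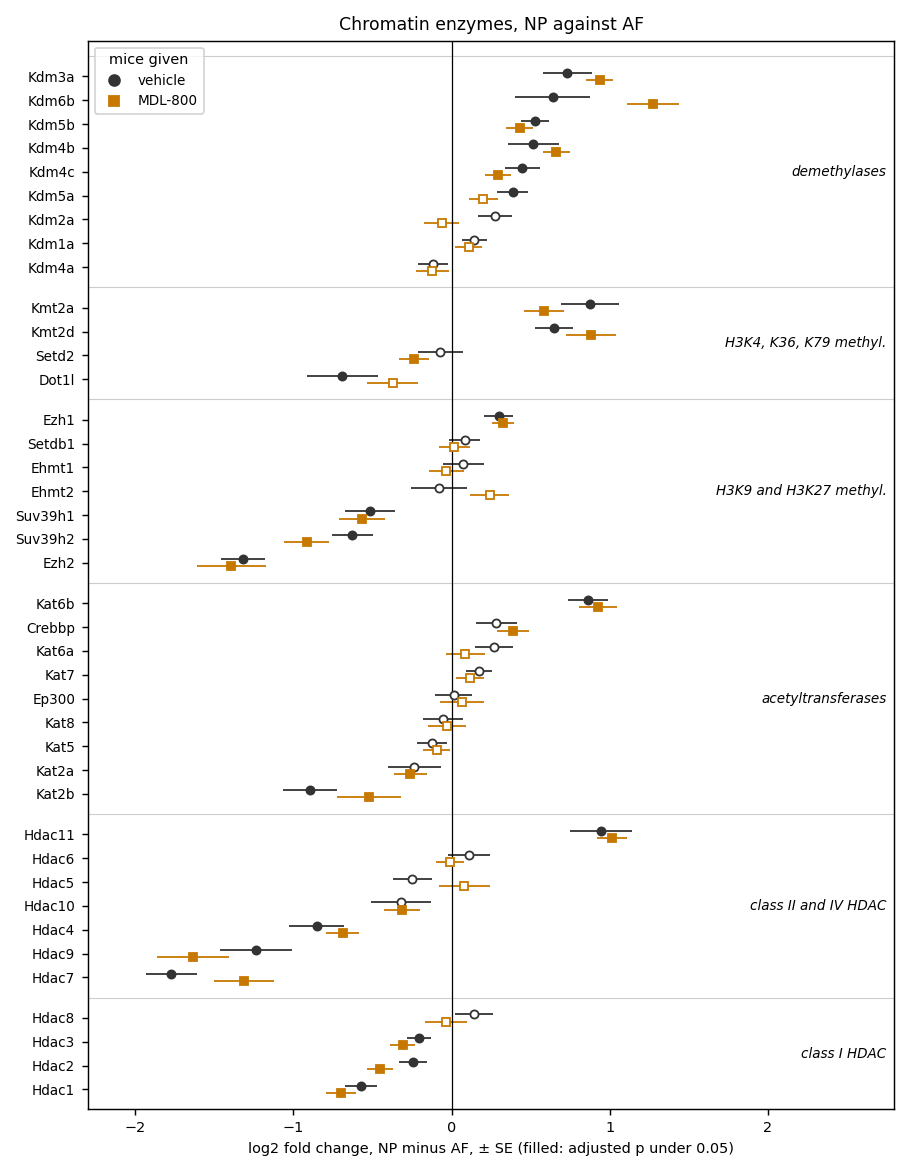
Log2 difference of NP minus AF (x axis, log2(scaled FPKM + 1) scale) for each of the 40 members, grouped by role, in vehicle-treated (circles) and MDL-800-treated mice (squares); bars are SE with 5 libraries a group and filled symbols have an adjusted p under 0.05. Demethylases lie mostly to the right (6 of 9 called higher in vehicle), while Hdac7, Ezh2 and Hdac9 lie farthest to the left.

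Among class I HDACs, of which Hdac1, Hdac2 and Hdac3 act in the NuRD, Sin3, CoREST and NCoR complexes, Hdac1 differed most. Hdac1 was at 25.9, 30.04, 31.9, 32.2 and 35.5 in NP vehicle and at 42.5, 44.4, 44.9, 47.6 and 54.3 in AF vehicle libraries. Every AF library lay above every NP library, a log2 difference of -0.57 (SE 0.10; limma, adjusted p = 0.000803), which was -0.20 and not called (adjusted p = 0.109) once each library's GC trend was removed. Its close relative Hdac2 was lower by less, at -0.24 (adjusted p = 0.0318), as was Hdac3, the catalytic subunit of the NCoR complexes, at -0.20 (adjusted p = 0.0375). Hdac2 kept its call in 4 and Hdac3 in 2 of 10 fits that each left out 1 library (Hdac2 lost it without NP library 2, 3, 5 or 6 or AF library 8 or 12; Hdac3 kept it without NP library 3 or AF library 13). Without the GC trend Hdac2 was at -0.05 (adjusted p = 0.596), and Hdac3 took the opposite sign, 0.11. Without libraries 1 and 2 of NP vehicle Hdac3 was not called (-0.19, adjusted p = 0.115), and under scaling to the same sum neither gene was (-0.165 and -0.125, adjusted p = 0.328 and 0.424). Hdac8 did not pass the test, with means of 4.19 ± 0.703 (SD, n = 5) and 3.67 ± 0.287 (SD, n = 5).

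Class IIa HDACs are large, weakly catalytic proteins that bind MEF2 factors and shuttle out of the nucleus on phosphorylation, and 3 of the 4 were lower in NP. Hdac7 (identifier ENSMUSG00000022475, chromosome 15, 97792664 to 97844502 on GRCm38), known from endothelium and thymocytes, gave the largest difference of any member. It was at 1.77, 2.26, 2.94, 3.12 and 3.12 in NP vehicle and at 9.50, 10.2, 10.3, 11.9 and 15.4 in AF vehicle. The lowest AF library was thus well above the highest NP library, with a log2 difference of -1.77 (SE 0.16; limma, adjusted p = 1.38e-05). Hdac9, abundant in muscle, was at 1.10, 1.21, 1.49, 2.51 and 3.94 in NP and 4.79, 5.60, 5.61, 6.27 and 6.95 in AF, a difference of -1.24 (adjusted p = 0.000952) with no overlap although NP libraries 1 and 2 were above the other three. Hdac4, which restrains hypertrophy of growth plate chondrocytes, was at 4.49, 6.53, 6.81, 8.39 and 8.61 and 9.65, 12.96, 13.5, 14.6 and 15.7, again without overlap, a difference of -0.85 (adjusted p = 0.00179). The fourth, Hdac5, did not pass the test between tissues, with means of 14.4 ± 2.38 (SD, n = 5) and 17.2 ± 1.52 (SD, n = 5). The ratio of Hdac7 to Hdac5 within a library was 0.13 to 0.205 in NP vehicle and 0.581 to 0.821 in AF vehicle.

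Hdac11, the sole class IV member and an efficient remover of fatty acyl groups, went the other way. Hdac11 (identifier ENSMUSG00000034245, chromosome 6, 91156665 to 91174692 on GRCm38) was at 13.00, 15.8, 16.2, 17.1 and 18.00 in NP vehicle and at 5.37, 6.01, 7.18, 11.02 and 11.1 in AF vehicle. All NP libraries lay above all AF libraries, a log2 difference of 0.94 (SE 0.19; limma, adjusted p = 0.00178). The mostly cytoplasmic tubulin deacetylase Hdac6 and the polyamine deacetylase Hdac10 did not pass the test, with log2 differences of 0.11 and -0.32.

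**Figure D2:**
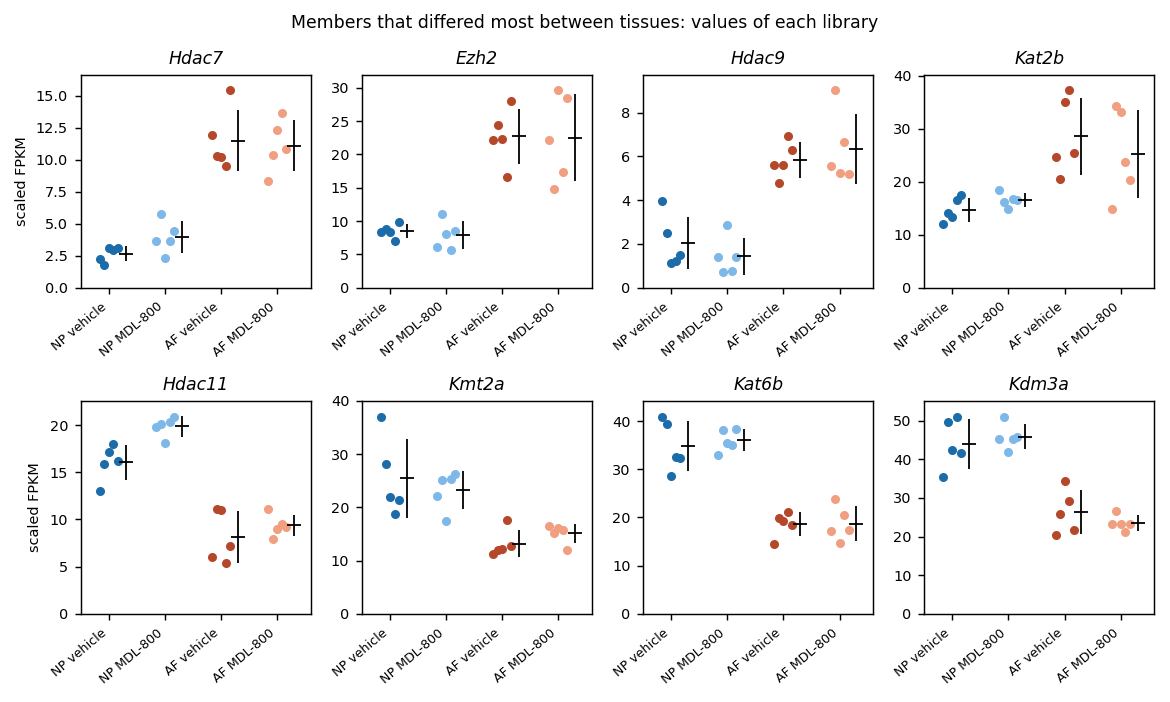
Scaled FPKM (y axis) of each library in the 4 groups for the 4 members furthest below (Hdac7, Ezh2, Hdac9, Kat2b) and the 4 furthest above (Hdac11, Kmt2a, Kat6b, Kdm3a) in NP against AF of vehicle-treated mice; points are libraries, and the bars beside them are mean and SD (n = 5). In all 8 panels the NP vehicle and AF vehicle points do not overlap.

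Among acetyltransferases, 1 member of each of 2 paralogous pairs was called. Kat6b, partner of BRPF scaffolds in the MOZ/MORF complexes, was at 28.7, 32.4, 32.6, 39.4 and 40.9 in NP and 14.6, 18.4, 19.2, 19.9 and 21.1 in AF, above in every library (0.86, SE 0.13; limma, adjusted p = 0.000226). Its paralog Kat6a did not pass the test (21.6 ± 3.25 (SD, n = 5) and 17.6 ± 2.15 (SD, n = 5); adjusted p = 0.0792), and the ratio of Kat6b to Kat6a ran from 1.40 to 1.83 in NP vehicle and from 0.857 to 1.27 in AF vehicle. Kat2b (PCAF), which acetylates H3K9 in the SAGA-type complexes, was at 12.00, 13.3, 14.1, 16.5 and 17.4 in NP and 20.4, 24.6, 25.5, 35.01 and 37.2 in AF, below in every library (-0.89; adjusted p = 0.00119). Kat2a, its paralog, did not pass the test (-0.23; adjusted p = 0.257). The broad H3K27 acetyltransferases Ep300 and Crebbp differed by 0.01 and 0.28, Kat5 of the NuA4 complex by -0.12, Kat7 by 0.17 and the H4K16 enzyme Kat8 by -0.05, and none of these 5 passed the test.

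The H3K27 methyltransferases of Polycomb repressive complex 2 (PRC2) differed in opposite directions. Ezh2 (identifier ENSMUSG00000029687, chromosome 6, 47530139 to 47595341 on GRCm38), the catalytic subunit typical of dividing cells, was at 6.94, 8.31, 8.32, 8.78 and 9.91 in NP vehicle and at 16.6, 22.2, 22.3, 24.5 and 28.1 in AF vehicle. No NP library reached the lowest AF library, and the log2 difference was -1.32 (SE 0.14; limma, adjusted p = 3.11e-05). Ezh1, the subunit that prevails in resting cells, was at 29.6, 33.7, 33.8, 35.3 and 37.5 in NP and 24.4, 27.01, 27.1, 29.3 and 29.5 in AF, higher in every NP library (0.30; adjusted p = 0.0157), and its call was lost when libraries 1 and 2 of NP vehicle were left out (0.25, adjusted p = 0.0782) or values were not scaled (0.23, adjusted p = 0.0712). The ratio of Ezh2 to Ezh1 was 0.197 to 0.293 in NP vehicle and 0.615 to 0.959 in AF vehicle, and 0.154 to 0.312 and 0.531 to 1.07 in the MDL-800 libraries, so the tissues did not overlap under either treatment. The heterochromatin enzymes Suv39h1 (-0.52; adjusted p = 0.0176) and Suv39h2 (-0.63; adjusted p = 0.00196) were lower in NP, the former with overlapping libraries and without a call when libraries 1 and 2 of NP were left out (-0.33, adjusted p = 0.0571), the GC trend was removed (-0.14, adjusted p = 0.452) or quantiles were normalised (-0.25, adjusted p = 0.158), the latter without a call after quantile normalisation (-0.10, adjusted p = 0.526). Ehmt1, Ehmt2 (G9a) and Setdb1, the other H3K9 enzymes, differed by 0.07, -0.08 and 0.08 and did not pass the test.

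**Figure D3:**
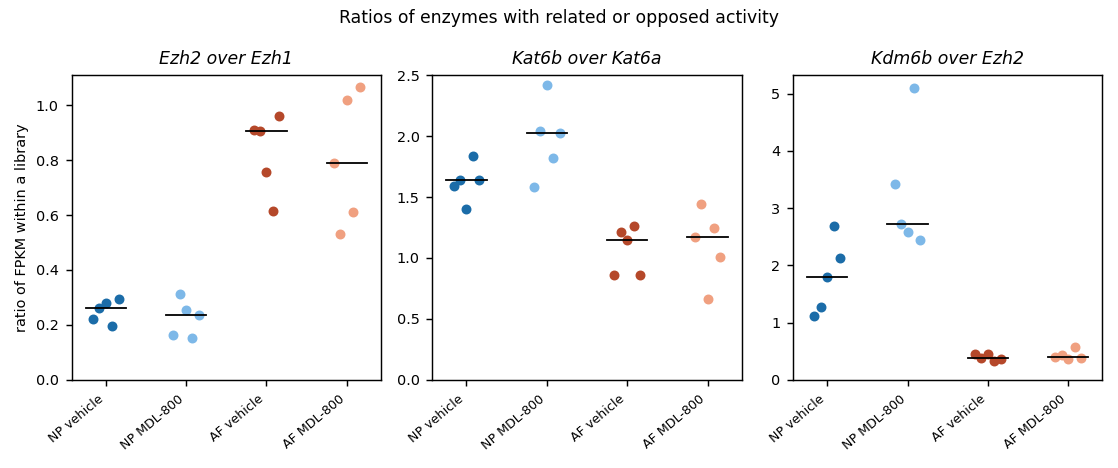
Ratio of the FPKM of 2 members within a library (y axis) in the 4 groups, for Ezh2 over Ezh1, Kat6b over Kat6a and Kdm6b over Ezh2; points are libraries and lines medians (n = 5). Ezh2 over Ezh1 stays at 0.312 or less in NP and at 0.531 or more in AF, and Kdm6b over Ezh2 is at 1.12 or more in NP and at 0.568 or less in AF.

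Of the methyltransferases found on transcribed genes, both H3K4 enzymes were higher in NP. Kmt2a (MLL1), which maintains Hox expression, was at 18.8, 21.3, 21.9, 28.1 and 37.1 in NP and 11.2, 12.1, 12.1, 12.8 and 17.6 in AF (0.88, SE 0.18; limma, adjusted p = 0.00207). Kmt2d (MLL4), the enhancer H3K4 monomethyltransferase, was at 20.2, 22.1, 23.4, 24.8 and 27.1 and 12.5, 13.1, 13.7, 16.98 and 17.2 (0.65; adjusted p = 0.000908). For both genes the lowest NP library was above the highest AF library. The H3K79 methyltransferase Dot1l was at 2.24, 2.41, 3.93, 4.18 and 5.78 in NP and 4.23, 6.15, 6.24, 7.42 and 8.19 in AF, lower in NP with overlap (-0.69; adjusted p = 0.0228), and without libraries 1 and 2 of NP it was not called (-0.39, adjusted p = 0.146), nor without NP library 1 or 2 or AF library 8 or 13 alone (-0.64 to -0.57). Dot1l also lost its call with the GC trend removed (-0.28, adjusted p = 0.127) and after quantile normalisation (-0.24, adjusted p = 0.315). Setd2, which places the third methyl group on H3K36, differed by -0.07 and did not pass the test.

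Demethylases were the role with the most members higher in NP. Kdm3a (identifier ENSMUSG00000053470, chromosome 6, 71588972 to 71632990 on GRCm38), an H3K9 demethylase induced by hypoxia-inducible factor in many cells, was at 35.3, 41.6, 42.3, 49.5 and 51.01 in NP vehicle and at 20.5, 21.7, 25.7, 29.1 and 34.5 in AF vehicle. The NP libraries were all above the AF libraries, a log2 difference of 0.73 (SE 0.15; limma, adjusted p = 0.00209). The H3K4 demethylases Kdm5b (0.53; adjusted p = 0.000524) and Kdm5a (0.39; adjusted p = 0.00601) were higher without overlap. Of the H3K9 and H3K36 demethylases of the KDM4 family, Kdm4c (0.45; adjusted p = 0.00527) was higher without overlap, Kdm4b (0.52; adjusted p = 0.0169) with overlap, and Kdm4a (-0.12; adjusted p = 0.325) did not pass the test. The H3K27 demethylase Kdm6b (JMJD3), an early-response gene of inflammation and the counterpart of Ezh2, was at 9.34, 11.2, 14.96, 18.6 and 21.2 in NP and 5.42, 9.53, 10.01, 10.2 and 10.5 in AF. Those libraries overlapped, since NP library 1 was below 4 of the AF libraries, and the difference of 0.64 (SE 0.23; adjusted p = 0.0384) kept its call in 4 of 10 fits that each left out 1 library and lost it without NP library 3, 5 or 6 or AF library 9, 10 or 12 (0.48 to 0.68), and it lost it also without scaling (0.58, adjusted p = 0.0679) and without a filter (adjusted p = 0.0804). The ratio of Kdm6b to Ezh2 did not overlap between tissues, at 1.12 to 2.68 in NP vehicle and 0.326 to 0.458 in AF vehicle. Ezh2 alone did not overlap either, so the ratio adds nothing to the call of Kdm6b. The flavin-dependent H3K4 demethylase Kdm1a (LSD1) differed by 0.14 and the H3K36 demethylase Kdm2a by 0.27 (adjusted p = 0.0508), and neither passed the test.

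Several of these demethylases are known as targets of hypoxia-inducible factor, and the promoter windows of Kdm3a and Kdm5b are shown as examples of windows that hold the core letters of its response element, chosen after the values were seen from among demethylases higher in every NP library. RefSeq (GRCm38.p6) listed promoters for 32 of the 40 members. The letters ACGTG and GCGTG were searched on both strands in the 250 bases before each start, with overlapping matches counted apart. The Kdm5b window is chr1:134559928-134560177 on the plus strand, with capitals for its 2 matches, which begin 229 and 19 bases before the start. For Kdm3a the 30 bases around its match are given, chr6:71632927-71632956 on the minus strand, and the match begins 27 bases before the RefSeq start. These bases lie inside the span given above for Kdm3a, so they are not upstream of the gene by that annotation. The other two windows of Kdm3a held 0 matches, and of the 2 windows of Kdm4c, which was also higher without overlap, 1 held 6 and the other 0.
Kdm5b: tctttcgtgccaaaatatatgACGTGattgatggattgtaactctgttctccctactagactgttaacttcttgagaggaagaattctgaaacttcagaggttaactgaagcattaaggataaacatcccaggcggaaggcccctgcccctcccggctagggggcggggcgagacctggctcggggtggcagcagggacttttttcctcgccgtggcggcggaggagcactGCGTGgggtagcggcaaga
Kdm3a: ccgggaggctgtGCGTGtcttgtgagagag
These letters are common: 21 of the 45 member windows held them (46.7%) beside 38.6% of all 32851 promoter windows of that length. The 21 member windows with a match belong to 18 members. Windows of the same gene can share bases, and a match is only a description of the letters.

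The same comparison in the MDL-800 libraries, which shares no library with the vehicle comparison, gave 11 members higher and 13 lower, or 60% of the members beside 62.8% of all genes (25.6% higher, 37.2% lower). Groups did not overlap for 10 members above and 9 below, beside 18.5% and 30.5% of all genes. In both comparisons 20 members were called, 10 higher and 10 lower with the same sign in each, which is 90.9% of those called in vehicle and 83.3% of those called in MDL-800. The 10 lower include Suv39h2, which passed the filter only through AF. Of all genes, 8282 were called in both with the same sign, or 90.7% and 80.5%, close to the members' shares. Dot1l and Kdm5a were called in vehicle libraries only and Hdac10, Kat2a, Crebbp and Setd2 in MDL-800 libraries only, and the test of the difference, given further on, called none of the 6. The largest difference higher in NP was now Kdm6b, at 20.6, 20.6, 20.8, 29.1 and 30.00 in NP MDL-800 and 6.45, 8.72, 9.89, 11.1 and 11.1 in AF MDL-800, without overlap (1.27, SE 0.17; limma, adjusted p = 7.23e-05). Hdac9 (-1.63), Ezh2 (-1.39) and Hdac7 (-1.31) again lay furthest below. Through every alternative of processing and every omission of a library, 14 of the 22 vehicle calls and 11 of the 24 MDL-800 calls were kept; in both sets were Hdac4, Hdac7, Hdac9, Hdac11, Kat6b, Ezh2, Kmt2d, Kdm3a and Kdm4b.

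The split between higher and lower calls moved with the scaling. Quantile normalisation gave 19 members higher and 6 lower in NP of vehicle-treated mice. Removal of each library's GC trend, which also evened the libraries' mean levels, gave 25 and 6. Under these settings the median difference of all genes moved from -0.08 to 0.20 and 0.23, and that of the members from 0.04 to 0.26 and 0.38. Ezh2, Hdac4, Hdac7, Hdac9 and Kat2b remained called lower under both, and Hdac11, Kat6b, Kmt2a, Kmt2d, Kdm3a, Kdm4b, Kdm4c, Kdm5a, Kdm5b, Ezh1 and Kdm6b remained called higher.

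Markers of other cells also differed between the tissues. The listed markers of endothelium, nerve, fat, bone, skeletal muscle, macrophages, neutrophils, the B lineage and red blood cells were all called lower in NP of vehicle-treated mice, as were all 10 of the dividing cells. Summed levels of the dividing-cell genes, which accompany Ezh2, Suv39h1 and Hdac1, were 22.7 to 86.6 in NP vehicle and 210 to 497 in AF vehicle, and 11.3 to 64.7 and 199 to 771 in the MDL-800 libraries. Those of 6 endothelial markers, beside Hdac7, were 3.59 to 7.64 and 48.6 to 110, and those of 7 skeletal muscle markers, beside Hdac9 and Hdac4, 11.6 to 1370 and 1110 to 9560 in vehicle libraries. The 7 neutrophil markers summed to 195 to 2970 in NP and 6940 to 18100 in AF. No listed marker was at 0 in all libraries of a group, and the part of these cells in the members' differences was not tested. In such bulk samples fewer cells of a type and less RNA per cell cannot be told apart.

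The treatment comparison asked whether long-term MDL-800 was followed by other levels of these enzymes. In NP, 0 of the 40 members were called by limma, beside 0.250% of all genes (41 genes: 0.232% higher, 0.0183% lower). At an unadjusted p under 0.05 there were 7 members higher and 3 lower, beside 9.11% and 4.99% of all genes (14.1% in either direction). Groups did not overlap for 4 members above (Hdac5, Hdac11, Ehmt2 and Kmt2d) and 2 below (Hdac2 and Hdac3), beside 3.50% and 1.00% of all genes. The members were split evenly in sign, 20 positive and 20 negative, beside 42.6% of all genes positive, with a median of 0.00 beside -0.03 for all genes.

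**Figure D4:**
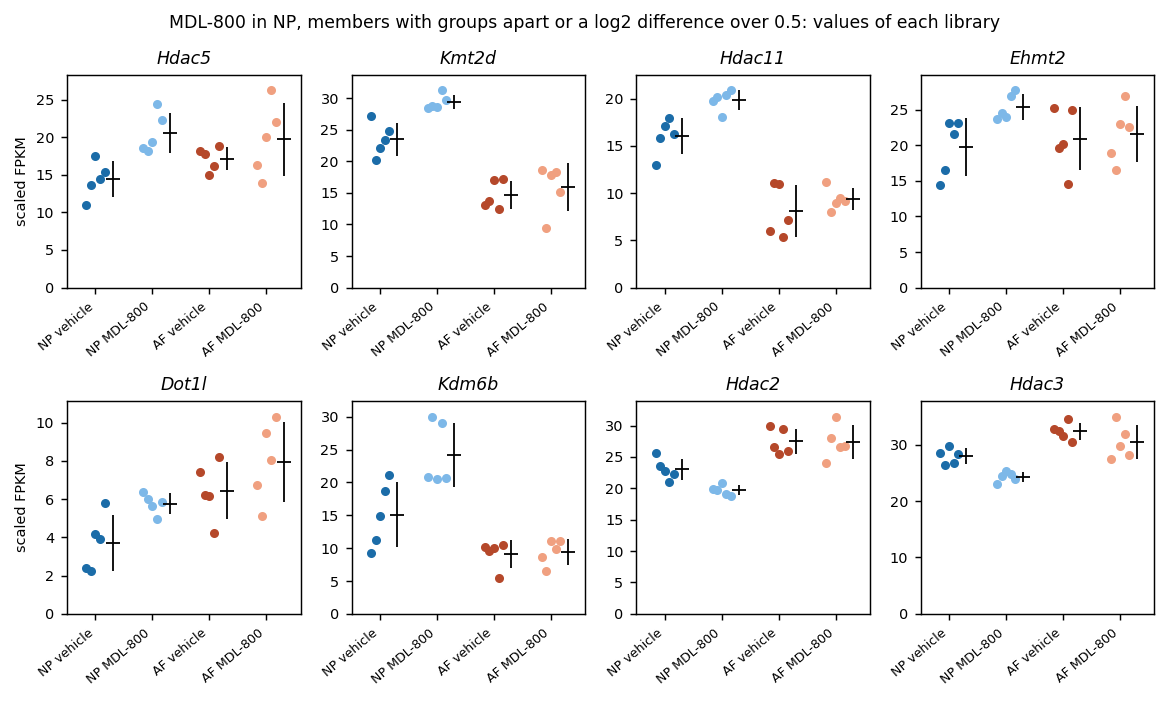
Scaled FPKM (y axis) of each library in the 4 groups for the 6 members whose NP MDL-800 and NP vehicle libraries did not overlap (Hdac5, Kmt2d, Hdac11, Ehmt2, Hdac2, Hdac3) and for Dot1l and Kdm6b; points are libraries, and the bars beside them are mean and SD (n = 5). Light blue points (NP MDL-800) lie above dark blue points (NP vehicle) for Hdac5, Kmt2d, Hdac11 and Ehmt2 and below them for Hdac2 and Hdac3, while none of the 8 passed the adjusted test.

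Hdac5 (identifier ENSMUSG00000008855, chromosome 11, 102194432 to 102230166 on GRCm38), the MEF2-binding class IIa deacetylase, had the smallest p of the members. It was at 11.04, 13.6, 14.4, 15.3 and 17.6 in NP vehicle and at 18.2, 18.5, 19.4, 22.3 and 24.5 in NP MDL-800. All treated libraries lay above all vehicle libraries, yet by a small gap, and the log2 difference was 0.49 (SE 0.12; limma, adjusted p = 0.104). Hdac11 was at 13.00, 15.8, 16.2, 17.1 and 18.00 in vehicle and 18.1, 19.8, 20.2, 20.4 and 20.9 in MDL-800, a difference of 0.30 (adjusted p = 0.157). For Hdac11 the gap between the highest vehicle and the lowest treated library was smaller still. The other class II enzymes overlapped between groups, among them Hdac7, at 2.64 ± 0.600 (SD, n = 5) and 3.94 ± 1.25 (SD, n = 5) (0.42; adjusted p = 0.362), and Hdac9, at 2.05 ± 1.19 (SD, n = 5) and 1.43 ± 0.859 (SD, n = 5).

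The class I enzymes all had negative differences in NP, from -0.22 to -0.10. Hdac2 was at 21.1, 22.3, 22.8, 23.5 and 25.6 in vehicle and 18.8, 19.1, 19.7, 19.9 and 20.9 in MDL-800 libraries (-0.22, SE 0.07; limma, adjusted p = 0.173). Hdac3 was at 26.4, 26.8, 28.3, 28.5 and 29.7 and 22.97, 23.9, 24.4, 24.8 and 25.4 (-0.19, SE 0.06; adjusted p = 0.161). In both genes each treated library was below each vehicle library, by a step smaller than the range within a group.

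Among methyltransferases, Kmt2d (identifier ENSMUSG00000048154, chromosome 15, 98831669 to 98871204 on GRCm38) was at 20.2, 22.1, 23.4, 24.8 and 27.1 in NP vehicle and 28.5, 28.7, 28.7, 29.8 and 31.3 in NP MDL-800 (0.31, SE 0.08; limma, adjusted p = 0.107). The treated libraries were tightly grouped above the vehicle ones. Ehmt2, the main H3K9 dimethyltransferase of euchromatin, was at 14.4, 16.5, 21.6, 23.1 and 23.1 and 23.7, 23.99, 24.6, 26.96 and 27.7 (0.37; adjusted p = 0.231), and its partner Ehmt1 was at 14.4 ± 2.07 (SD, n = 5) and 14.2 ± 0.421 (SD, n = 5). For Ehmt2 vehicle libraries 1 and 2 were low and the other three lay just under the treated ones. Dot1l was at 2.24, 2.41, 3.93, 4.18 and 5.78 and 4.94, 5.65, 5.84, 6.00 and 6.39 with overlap (0.57, SE 0.19; adjusted p = 0.21). Ezh2 was at 8.45 ± 1.07 (SD, n = 5) and 7.85 ± 2.13 (SD, n = 5) (-0.12; adjusted p = 0.799) and Ezh1 differed by 0.06 (adjusted p = 0.794). Of the acetyltransferases, all 9 overlapped, with log2 differences from -0.21 for Kat6a to 0.18 for Kat2b and no unadjusted p under 0.05.

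The demethylase Kdm6b (identifier ENSMUSG00000018476, chromosome 11, 69398508 to 69413675 on GRCm38) gave the largest difference of the members in NP. It was at 9.34, 11.2, 14.96, 18.6 and 21.2 in vehicle and 20.6, 20.6, 20.8, 29.1 and 30.00 in MDL-800. The highest vehicle library was above 3 of the treated ones, and the difference of 0.69 (SE 0.21; limma, adjusted p = 0.174) did not pass the test. Kdm4b gave 0.31 (adjusted p = 0.284). Kdm2a, the H3K36 demethylase that binds CpG islands, was at 39.5, 39.5, 40.9, 45.9 and 46.6 in vehicle and 33.8, 34.1, 35.9, 35.9 and 41.5 in MDL-800 (-0.23; adjusted p = 0.222), and library 18 was the treated library that reached into the vehicle range. The remaining demethylases had log2 differences from -0.15 for Kdm4c to 0.07 for Kdm3a.

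These differences in NP ran parallel to the GC content of the members' transcripts. Across the 40 members, Spearman's rho between GC content of the longest transcript and the log2 difference in NP was 0.816, against 0.463 across 16348 genes; the points share the same 10 libraries, and genes are not independent replicates. The 10 members of highest GC content (Ehmt2, Hdac7, Hdac5, Kdm6b, Kdm4b, Kmt2d, Dot1l, Kat2a, Hdac11 and Hdac10) were all positive, with a median of 0.34. Of the 10 members of lowest GC content, from Hdac2 at 41.9% to Kat2b at 46.6%, 2 were positive, with a median of -0.13. The trend belonged to whole libraries: the slope of all genes on GC content, in log2 units per 10 percentage points, was -0.28 in each of libraries 1 and 2 of NP vehicle, -0.05 to -0.01 in the other three, and 0.02 to 0.09 in NP MDL-800, without overlap between the groups. In AF the slopes overlapped, at -0.24 to 0.10 in vehicle and -0.11 to 0.14 in MDL-800, and the members' rho was 0.375.

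With the GC trend of each library removed and its mean level evened, rho across the members was 0.453, 21 of the 40 differences were positive, and no member was called. Of the 6 members whose groups had not overlapped, Hdac5 was then at 0.175, Hdac11 at 0.09, Kmt2d at 0.065, Ehmt2 at 0.006, Hdac2 at -0.12 and Hdac3 at -0.11. Kdm6b was at 0.38, Dot1l at 0.36 and Kdm2a at -0.155. With libraries 1 and 2 of NP vehicle left out, the differences were 0.36 for Hdac5, 0.38 for Kdm6b, 0.28 for Dot1l, 0.16 for Ehmt2, 0.20 for Hdac11 and 0.32 for Kmt2d (limma, adjusted p from 0.144 for Kmt2d to 0.521 for Dot1l). Hdac2 and Hdac3 were then at -0.16 and -0.21. NP markers also moved with the treatment, their summed level being 12400 to 15200 in NP MDL-800 and 10600 to 12200 in NP vehicle, and their part in the result was not tested.

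**Figure D5:**
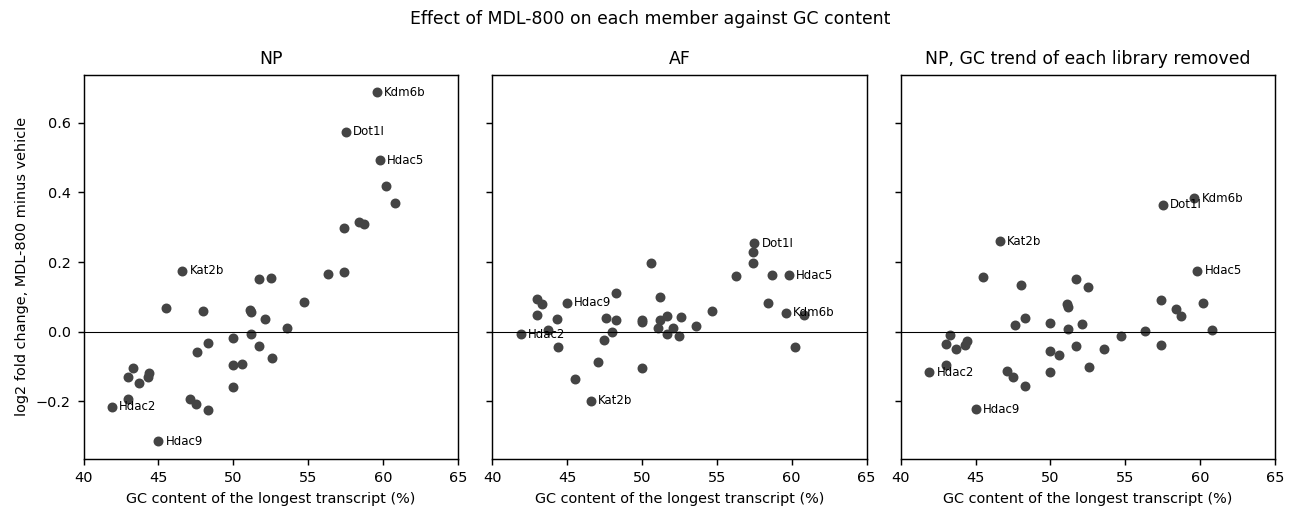
Log2 difference of MDL-800 minus vehicle (y axis) for each of the 40 members against the GC content of its longest transcript in percent (x axis), in NP, in AF and in NP after the GC trend of each library was removed. In NP the points climb with GC content (rho 0.816); they climb less in AF (0.375) and less in NP after removal of the trend (0.453).

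In AF, 0 of the 40 members were called, beside 0% of all genes, and 0 had an unadjusted p under 0.05 by limma, beside 1.65% of all genes (0.922% higher, 0.726% lower). No member had groups apart, beside 0.226% of all genes (0.128% above, 0.0977% below), and all adjusted p-values were 1. Differences ran from -0.20 for Kat2b to 0.25 for Dot1l, and 29 members were positive and 11 negative, beside 52.6% of all genes positive. The 3 positive members of smallest p were Kmt2a, Kat2a and Dot1l. Kmt2a was at 11.2, 12.1, 12.1, 12.8 and 17.6 with vehicle and at 11.98, 15.2, 15.8, 16.1 and 16.6 with MDL-800 (0.20, SE 0.14). Kat2a was at 7.20, 7.94, 9.35, 10.4 and 12.4 and 9.46, 9.83, 11.1, 11.6 and 12.3 (0.20, SE 0.15), and Dot1l at 4.23, 6.15, 6.24, 7.42 and 8.19 and 5.12, 6.71, 8.06, 9.45 and 10.3 (0.25, SE 0.20). The treated libraries of Kmt2a and Kat2a lay within the vehicle range, and those of Dot1l overlapped it and reached above it in 2 libraries.

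The 3 negative members of smallest p in AF were Kat7, Hdac3 and Kdm3a. Kat7, the HBO1 acetyltransferase of H3K14, was at 33.3, 35.3, 37.2, 38.02 and 39.2 in vehicle and 29.9, 34.5, 34.6, 35.4 and 35.7 in MDL-800 (-0.10, SE 0.09), where library 29 alone lay below the vehicle range. Hdac3 was at 30.5, 31.6, 32.4, 32.8 and 34.5 and 27.4, 28.3, 29.8, 31.9 and 34.97 (-0.09, SE 0.09), and Kdm3a at 20.5, 21.7, 25.7, 29.1 and 34.5 and 21.1, 23.1, 23.1, 23.3 and 26.7 (-0.14, SE 0.14). The members that led in NP differed in AF by 0.16 for Hdac5, 0.08 for Kmt2d and 0.05 for Kdm6b.

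Whether the treatment difference was itself unlike in NP and AF was tested in a fit of all 4 groups. Limma called 0 of the 40 members, beside 0% of all genes, and at an unadjusted p under 0.05 there was 1 member higher and 1 lower, beside 2.12% and 1.61% of all genes (3.73% in either direction). These were Kdm6b, with a difference of differences of 0.63 (SE 0.30), and Kdm2a, with -0.34 (SE 0.15), neither past the adjusted test. Hdac5 (0.33, SE 0.20) and Hdac7 (0.46, SE 0.25) did not pass the test, which does not show that they responded alike in both tissues.

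Beyond the 40 members, 133 further genes of the same machinery were listed and all were tested, the lists having been drawn up with earlier results of these data known. These genes were read in the main fit alone, so whether their calls hold under other scalings or omissions of a library was not tested. Between tissues of vehicle-treated mice 20 of the 133 were higher and 35 lower in NP, which is 41.4% called beside 55.7% of all genes (21.8% higher, 33.9% lower). Of 45 other histone-modifying enzymes 9 were higher and 14 lower, led by the methyltransferases Smyd2 (-1.39; adjusted p = 0.00841) and Kmt5a, the H4K20 monomethylase of dividing cells (-1.05; adjusted p = 7.37e-05), and by Smyd5 (0.97; adjusted p = 7.5e-05). Of 28 partners of deacetylases 4 were higher and 6 lower, with the methyl-CpG binder Mbd2 at means of 333 ± 88.6 and 141 ± 47.9 (SD, n = 5; 1.25), Mta2 of NuRD at -0.81 and Gps2 of NCoR at -0.71. Of 30 acetyltransferase partners 3 were higher and 7 lower, among them the BRPF scaffolds Brpf3 (-1.50) and Brpf1 (-0.71), both below in NP, and Morf4l1 (0.53). Of 22 methyltransferase partners 2 were higher and 6 lower, including Phf19 (-0.77), Wdr5 (-0.59) and Aebp2 (0.44). Of 8 bromodomain readers and MEF2 factors 2 were higher and 2 lower, with Mef2c, the transcription factor that class IIa HDACs bind, at means of 17.6 ± 3.40 and 53.8 ± 14.3 (SD, n = 5; -1.54, limma, adjusted p = 6.04e-05), Brd7 at -0.39 and Brd2 at 0.31.

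The core PRC2 subunits Suz12 (-0.38; limma, adjusted p = 0.00437) and Eed (-0.32; adjusted p = 0.0102), which Ezh1 and Ezh2 both need, were lower in NP by less than Ezh2 was. With MDL-800, limma called 0 of the 133 further genes in NP and 0 in AF, and at an unadjusted p under 0.05 there were 21 higher and 11 lower in NP, beside 9.11% and 4.99% of all genes. Sirt6 itself, the target of MDL-800, was at 8.49 ± 0.444 in NP MDL-800 and 5.03 ± 1.33 in NP vehicle (SD, n = 5), without overlap and without a call (0.68, SE 0.15; adjusted p = 0.082), and at 5.55 ± 1.87 and 4.73 ± 1.17 in AF. Among all genes, 3.50% had NP groups apart in this direction. Like the other further genes, Sirt6 was read in the main fit alone, so its dependence on the GC trend or on libraries 1 and 2 of NP vehicle was not tested.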

How the data were processed

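RNA was measured in 20 libraries, 5 in each of 4 groups, with stranded total RNA-seq after removal of ribosomal RNA, per the labels' protocols. The authors deposited FPKM values for each gene and library; STAR 2.7.11b and the build mm10 are named in the submitters' processing notes, and the gene counter and annotation are not given in the sources used here. Mixed cells and whole-library trends therefore stay in these values, and reads of overlapping or near-identical genes cannot be divided again.

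From the deposited FPKM, each library was scaled by 1 factor, the median, over the 11308 genes that reached 1 FPKM in each of the 20, of its value relative to their geometric mean. Kept for testing were 16383 genes that reached 1 FPKM in 5 or more libraries, and log2(value + 1) was tested in limma 3.58.1 (R 4.3.3; moderated with a trend, two-sided, Benjamini-Hochberg over all genes, threshold 0.05). Each comparison was fitted on its 2 groups, and the difference between tissues on all 4 groups. The fits were tested on simulated data. GC content and length came from the longest GENCODE M21 transcript (GRCm38), available for 99.8% of tested genes. The GC trend was removed per library with a spline and an intercept, which also gave all libraries the same mean log2 level over these genes. Tables and figures were made with Python 3.11.15, pandas 2.3.3 and matplotlib 3.10.9. No 2 libraries held identical values.

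Values of each library are given for the members with the largest differences or smallest p in each comparison, or with groups that did not overlap, and for further genes the 3 largest called differences of each list; Suz12, Eed and Sirt6 were added beside these. The members, the 5 lists of further genes, the 12 marker lists and the pairs for ratios were chosen with earlier results of these data known. Alternatives were other scalings, a pseudocount of 0.1, no filter, GC and length trends removed, all 4 groups in the fit, Xist as a covariate and each library left out. The fits with a replicate block and those without libraries 1 and 2 of NP vehicle were added after seeing the data.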

Additional observations from a re-analysis of the deposited data

Results flagged for a closer look

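In 9 of 160 sets of a member and a group, 1 library stood far from the other four, with a gap to its nearest neighbour above 0.71 of the group's range; chance alone gives about 1 in 20, or 8. In AF vehicle, library 13 was high for Kat6a (21.5 against 16.4 to 17.0) and for Kdm2a (44.1 against 30.9 to 34.1), while library 12, which also had the steepest negative GC slope of AF, was high for Kmt2a (17.6 against 11.2 to 12.8) and low for Kdm6b (5.42 against 9.53 to 10.5). In NP MDL-800, library 18 was high for Crebbp (41.9 against 33.0 to 35.2) and for Kdm2a (41.5 against 33.8 to 35.9). In AF MDL-800, library 30 was high for Kat5 (22.7 against 19.2 to 19.7), library 29 was low for Kat7 (29.9 against 34.5 to 35.7) and library 27 was low for Kdm4b (9.97 against 11.5 to 11.8). All values are scaled FPKM, and the part of any library's quality in them was not tested.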

How the results depend on the processing

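No member was called for MDL-800 in NP or AF, or for the difference between tissues, under any setting or omission run. The number of all genes called in NP, 41, was 18 without scaling, 21 as TPM, 70 after quantile normalisation, 7 without a filter, 4 with all 4 groups in the fit, 9 with Xist as a covariate and 11 without libraries 1 and 2 of vehicle. Leaving out each library gave 2 (without vehicle library 3 or MDL-800 library 22) to 189 (without vehicle library 6), and 0 to 1 in AF and for the difference between tissues. Ehmt2 in NP was -0.006 without GC and length trends. Between tissues, members called higher and lower in vehicle, 11 and 11, were 19 and 6 after quantile normalisation, 25 and 6 without the GC trend, and 25 and 7 without GC and length trends; in MDL-800 libraries, 11 and 13 were 19 and 6, 24 and 6, and 24 and 6. Without the GC trend, then without GC and length trends, Hdac3 was 0.11 and 0.12 in vehicle and 0.081 and 0.079 in MDL-800 libraries, and Kat2a in the latter 0.008 and 0; after quantile normalisation Kat2a was 0.026 and Hdac10 0.144, and Setd2 without the GC trend 0.086. In MDL-800 libraries the calls of Hdac10, Kat2a, Kat2b and Setd2 held in 3, 3, 2 and 2 of 10 omissions. The cause was not tested.

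The labels share no replicate numbers across groups. Original sample names in the table's header do, with no stated meaning, so same-number libraries were not taken as pairs. Such libraries correlated at -0.178 to 0.285 and those of different numbers at -0.372 to 0.327, which cannot settle whether they share a mouse. A replicate block on these numbers, added after seeing the data, called 10 members higher and 9 lower in vehicle, and 6 and 9 in MDL-800 libraries (3 pairs, others dropped). It ended the calls of Hdac2 (adjusted p = 0.0591), Hdac3 (0.0932), Ezh1 (0.0549) and Kdm6b (0.0659) in vehicle, and of Hdac3, Hdac10, Kat2a, Crebbp, Ezh1, Kmt2a, Setd2, Kdm4c and Kdm5b in MDL-800 libraries (limma, adjusted p 0.0622 to 0.298). FPKM gives no depth, so low members such as Suv39h2 and Hdac9 carry an unknown counting error.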
